A study of Yarrowia lipolytica with 11 samples.

Results

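A set of 39 genes of the oleaginous yeast Yarrowia lipolytica was examined, out of 7135 in the deposited tables. They were chosen by their own values: the wild type with hexanoic acid had to hold a mean of at most 0.5 of the untreated wild type, and the mutant with acid at least 2 times the treated wild type. The untreated mutant had to stay under 2 times the untreated wild type, which itself had to reach 50. All 4 limits were set on group means of the deposited normalized counts (reads divided by 1 size factor per library) plus 1, and 6 further genes were left out by name. Because the same values chose the genes, the fall in the wild type, the excess in the treated mutant and the difference between both responses are given as descriptions and lend no support to the choice.

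The libraries formed 4 groups. Wild type was sampled without acid and at 1 g/L hexanoic acid, in 3 libraries each. The mutant, labelled as a pex10 deletion strain that harbours a DGA1 overexpression plasmid, had 2 libraries without acid and 3 at the same dose. Per the labels' protocols, each culture started from its own colony, grew in YPC and was taken during exponential growth. The deletion and the plasmid are labelled together in every mutant library, so the part of each cannot be told apart, and the sources used here do not say whether the wild type carried an empty plasmid.

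Hexanoic acid is a medium-chain fatty acid, which yeasts can activate to its coenzyme A ester and degrade by beta-oxidation, and which as a weak acid can also harm the cell. Y. lipolytica is known for growing on fatty acids and alkanes. In yeasts beta-oxidation takes place in peroxisomes, whose matrix proteins are imported with the help of the membrane protein Pex10, while the product of DGA1, a diacylglycerol acyltransferase, stores acyl chains as triacylglycerol. Growth on fatty acids is known to lower genes of fatty acid synthesis in many organisms.

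Library totals ran from 9988288 to 17519857 reads, and the members' share of reads was 0.316 to 0.356% for wild type without acid, 0.0425 to 0.0606% with it, 0.219 and 0.139% for the mutant without acid and 0.129 to 0.138% with it. Reads of genes whose tags do not start with YALI0_, taken here as mitochondrially encoded and noncoding, made up 0.0275 to 0.0648% in all libraries. Genes with YALI0_ tags are not in that share, whether coding or not. The tag of PEX10 (YALI0_C01023g) stood at 164, 277 and 188 normalized counts in the untreated wild type, 249.7, 144 and 174 in the treated wild type, 66.5 and 100.2 in the untreated mutant and 76, 108 and 70.7 in the treated mutant, so the mutant was lower in every library but not at 0. Which part of the gene the strain lacks is not given in the sources used here, and the strain is called the mutant after its label. DGA1 (YALI0_E32769g) stood at 1492 to 3076 in the wild-type libraries and at 42745 and 44746 in the mutant without acid, while its treated libraries held 105582, 45813 and 39994. The 2 untreated mutant libraries correlated at r = 0.956 over all genes tested (log2 normalized counts plus 1) and at r = 0.857 over the members, the lowest of any replicate pair in both cases. Where leaving out either of them moved a called acid response in the mutant by over 1.5 times or ended the call, the value without it is given for members described by library.

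The tables give locus tags only, and 0 of them matched the RefSeq gene table used here, which belongs to another strain's assembly (ASM176148v1). Names and roles are therefore given for PEX10 and DGA1 and for a few tags with published assignments, which could not be checked against a table. Among the members that is 1 gene, YALI0_E25982g, assigned to ALK1, a cytochrome P450 of the CYP52 family that hydroxylates alkanes. The other members are called by their tags. The strand setting of the counting is not given in the sources used here, so values of genes that overlap another gene, on either strand, or that have a close copy are uncertain. Normalized counts are not scaled by gene length, so they are compared between groups for 1 gene and not between genes.

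Only part of the set was high in the treated mutant. As a share of the untreated wild type, the treated mutant mean ran from 0.857% for YALI0_B10626g to 110.04% for YALI0_E33935g, with a median of 42.5%. In 18 members it was at least 50%, in 8 between 20 and 50%, and in 13 under 20%, although all 39 were at least 2 times above the treated wild type as the rule asks. The last 13 were thus low in both strains with acid, and a description of the whole set as kept high in the treated mutant does not hold for them. The limits of 20 and 50% were chosen after the values were seen and serve only to order the description. Another 998 genes met the limits on the wild type and the untreated mutant but stayed under 2 times in the treated mutant. Their median share was 33.6%, and their median ratio of treated mutant to treated wild type was 1.09, against 2.29 in the members. The limit of 2 on that ratio separates both sets, so the gap between these ratios restates the rule.

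**Figure D1:**
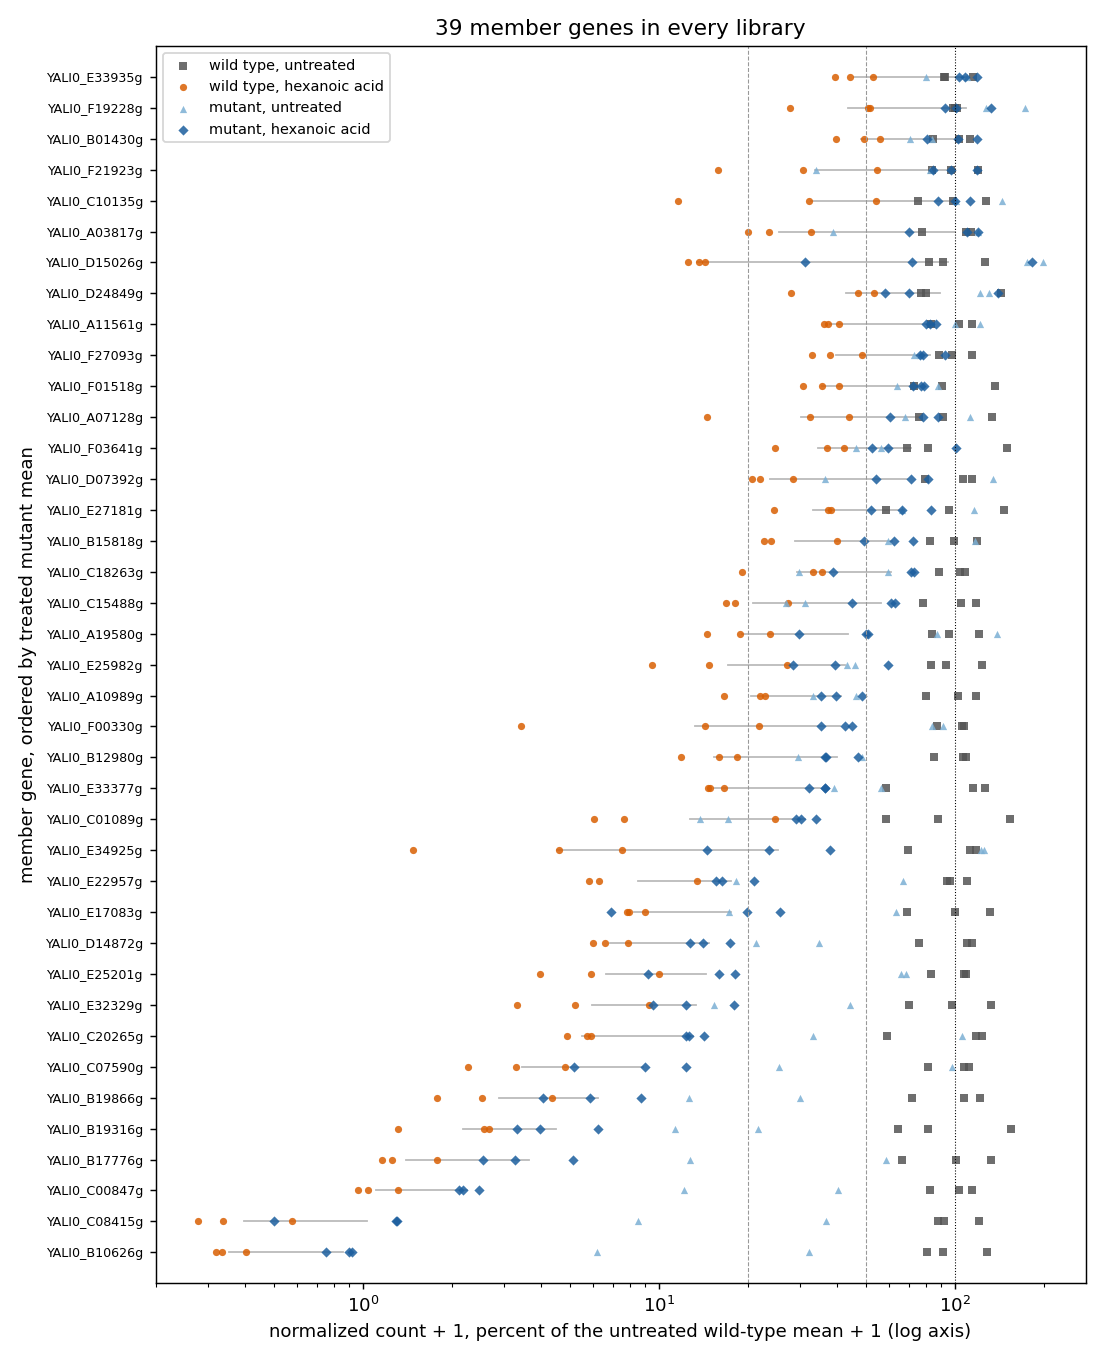
Normalized count plus 1 of each of the 39 members in each of the 11 libraries, as a percent of the untreated wild-type mean plus 1 (log axis), with genes ordered by the treated mutant mean and a grey line from the treated wild-type to the treated mutant mean. Dashed lines mark 20 and 50%, and the share in the treated mutant runs from 0.857% at the bottom to 110.04% at the top.

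The 18 members with a share of at least 50% came closest to the untreated wild type. They were YALI0_E33935g, YALI0_F19228g, YALI0_B01430g, YALI0_F21923g, YALI0_C10135g, YALI0_A03817g, YALI0_D15026g, YALI0_D24849g, YALI0_A11561g, YALI0_F27093g, YALI0_F01518g, YALI0_A07128g, YALI0_F03641g, YALI0_D07392g, YALI0_E27181g, YALI0_B15818g, YALI0_C18263g and YALI0_C15488g. Their fall in the wild type was the mildest, 2.07-fold to 7.41-fold with a median of 2.99-fold, and their median share in the treated mutant was 82.5%. Every treated mutant mean was at least 2 times the treated wild type by the rule, so a low share requires a deep fall in the wild type. The order of the falls across the groups of shares is therefore in large part set by how these groups were cut. In 15 of the 18 the treated mutant libraries overlapped the untreated wild-type libraries. Over all 39 members the treated mutant was below the untreated wild type without overlap in 24, where 32.2% of all genes were, and above it in 0 (32.8%).

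YALI0_E33935g had 6557, 6607 and 8229 normalized counts in the untreated wild type and 3778, 2807 and 3142 in the treated wild type. In the mutant it had 7804 and 5702 without acid and 7726, 7362 and 8453 with acid. The treated wild type was below every other library, and the 3 other groups overlapped. Its log2 difference between the treated mutant and the untreated wild type was 0.15 ± 0.20 (SE).

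YALI0_A03817g had 702, 497 and 730.2 in the untreated wild type, 208.9, 128 and 151 with acid, and stood at 449, 767 and 708 in the treated mutant. Its 2 untreated mutant libraries lay far apart, at 248 and 771. YALI0_C10135g had 173, 224 and 131 in the untreated wild type, 94.8, 19.5 and 55.9 in the treated wild type, 177 and 254 in the untreated mutant and 176, 198 and 154 in the treated mutant. For both genes the 3 treated mutant libraries lay above all 3 treated wild-type libraries and overlapped those of the untreated wild type. YALI0_F19228g showed the narrowest untreated wild type of the set, with 84, 84.8 and 82.2, against 42.8, 22.5 and 42.2 with acid. The mutant held 107 and 146 without acid and 111, 77.2 and 84.5 with acid, so its groups overlapped and the treated wild type was below all other libraries.

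YALI0_D15026g had the largest ratio of treated mutant to treated wild type in the set (7.04). Its values were 140.0, 125 and 194 in the untreated wild type, 18.3, 21 and 20 in the treated wild type and 305 and 268 in the untreated mutant. The treated mutant libraries spread from 279 through 109.7 to 47.2, so the group mean of 145 ± 120.1 (SD, n = 3) describes none of them well. Even the lowest was above all treated wild-type libraries. YALI0_F21923g differed in the untreated mutant, where it had 66.5 and 27 normalized counts, against 68, 78.6 and 97.2 in the untreated wild type, 43.8, 12 and 24.3 in the treated wild type and 68.5, 79 and 96.3 in the treated mutant. The treated mutant and the untreated wild type covered nearly the same range, and every library of the other groups lay below it.

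YALI0_C15488g was the single member called higher with acid in the mutant. It had 2088, 2815 and 3155 normalized counts in the untreated wild type and 485, 451 and 732 with acid, but 724 and 838 in the untreated mutant and 1633, 1203 and 1682 in the treated mutant. It was lower with acid in the wild type and higher in the mutant, and neither pair of groups overlapped. The log2 change with acid in the mutant was 0.95 ± 0.26 (adjusted p = 0.0254, edgeR quasi-likelihood test), and the treated mutant remained below the untreated wild type by a log2 difference of −0.82 ± 0.22 (adjusted p = 0.00801, edgeR). The first call was lost without untreated mutant replicate 1 (0.87) or 2 (1.04) and without treated mutant replicate 1 (0.89) or 3 (0.86).

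**Figure D2:**
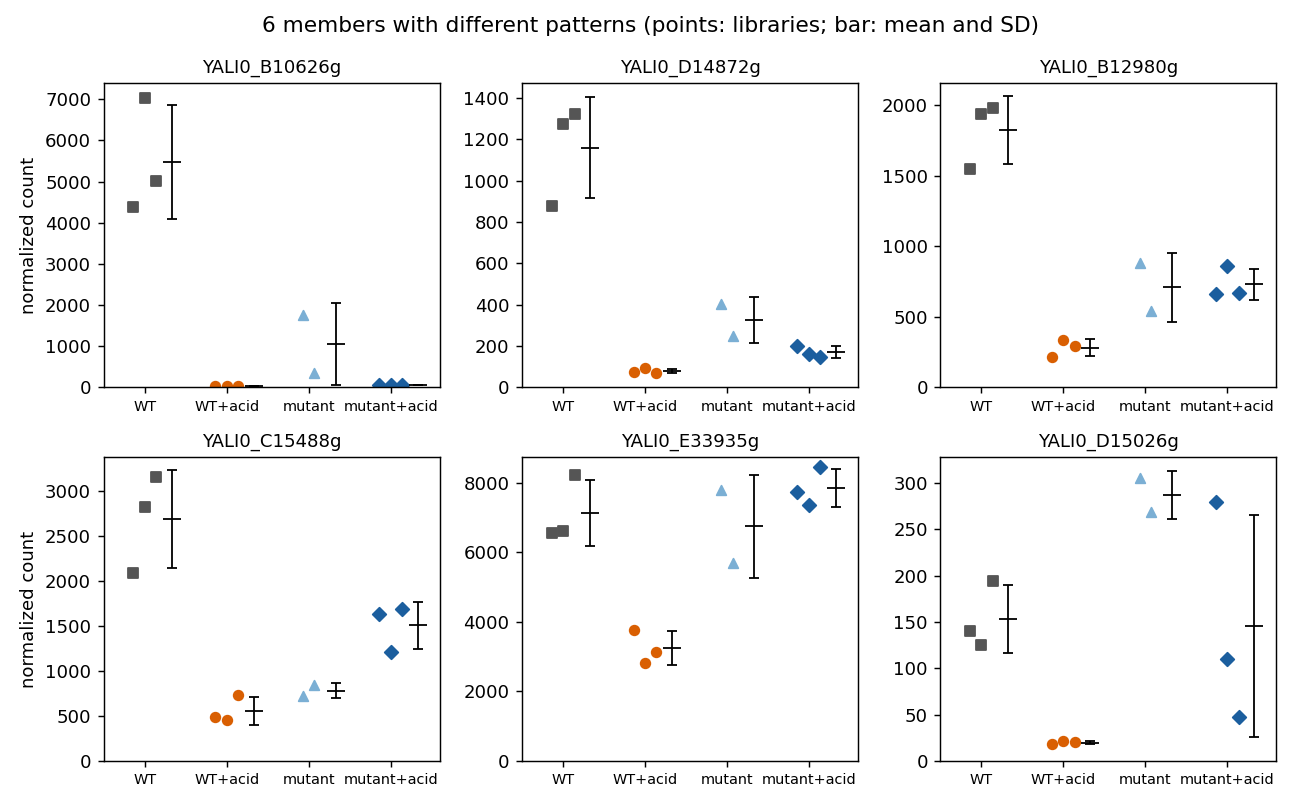
Normalized counts of 6 members in every library of the 4 groups (points) with the group mean and SD (bars; n = 3, and n = 2 for the untreated mutant). YALI0_B10626g ends near 0 in both treated groups, YALI0_B12980g overlaps between both mutant groups, YALI0_C15488g is higher in the treated than in the untreated mutant, and YALI0_D15026g spreads from 47.2 to 279 in the treated mutant.

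The 8 members with a share between 20 and 50% were YALI0_A19580g, YALI0_E25982g, YALI0_A10989g, YALI0_F00330g, YALI0_B12980g, YALI0_E33377g, YALI0_C01089g and YALI0_E34925g. They fell 4.89-fold to 22.1-fold in the wild type, and all their treated mutant libraries lay between those of the treated and the untreated wild type. The ratio of the treated to the untreated mutant mean ran from 0.205 to 2.02, with a median of 0.843, and 5 of the 8 were at or under 0.5 of the wild type without acid.

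In ALK1 (YALI0_E25982g) the untreated wild type had 284, 319.8 and 422 normalized counts and the treated wild type 91.7, 31.6 and 49.6. The mutant had 147 and 157 without acid and 96.3, 134 and 203 with acid. Both mutant groups overlapped each other and lay between the wild-type groups. YALI0_B12980g had the same order, with 1549.9, 1939 and 1984 in the untreated wild type, 216, 334 and 291 with acid, 882 and 537 in the untreated mutant and 664, 858 and 668 in the treated mutant. Its log2 change with acid was 0.04 ± 0.25 in the mutant. YALI0_E33377g went from 919, 465 and 1008 to 131, 116 and 118 in the wild type, with 449.6 and 310.2 in the untreated mutant and 290.0, 256 and 289.8 in the treated mutant. YALI0_A10989g had 402, 314 and 463 in the untreated wild type, 85.6, 88.7 and 64.3 with acid, 181 and 130 in the untreated mutant and 138, 190 and 155 in the treated mutant. In all 4 genes every mutant library lay above the treated and below the untreated wild type.

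YALI0_C01089g was lowest in the untreated mutant relative to the wild type, at 15.4% of its mean. It had 96, 254 and 144 normalized counts in the untreated wild type, 39.8, 9.02 and 11.6 with acid, 27.2 and 21.8 in the untreated mutant and 47.1, 49.2 and 55 in the treated mutant. The treated mutant lay above both the untreated mutant and the treated wild type without overlap, yet its log2 change with acid, 1.05 ± 0.56, did not pass in the mutant (adjusted p = 0.238, edgeR). In the order of tags 2 others lie between this gene and PEX10, the gene labelled as deleted; whether that change bears on its level was not tested.

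In YALI0_A19580g, YALI0_F00330g and YALI0_E34925g no difference between the strains was called without acid. YALI0_A19580g had 994, 688 and 782 in the untreated wild type, 154, 119 and 194 with acid, 1142 and 714 in the untreated mutant and 418, 409.9 and 244 in the treated mutant. It fell in the mutant as well, with a log2 change of −1.38 ± 0.30 (adjusted p = 0.00971, edgeR), and that call was lost without untreated mutant replicate 1 (−0.98) and held without replicate 2 (−1.69). YALI0_F00330g stood at 177, 216 and 219.7, then 43.8, 6.01 and 28.5 with acid, against 171 and 186 and then 91, 86 and 71.7 in the mutant. YALI0_E34925g had 79, 45.9 and 75.1 in the untreated wild type, 81.7 and 83.6 in the untreated mutant and 24.6, 14.9 and 8.84 in the treated mutant. Its fall in the mutant was called too, with a log2 change of −2.36 ± 0.46 (adjusted p = 0.00601, edgeR). The change was also −2.36 without either untreated mutant replicate. In the treated wild type it held 4, 0 and 2 reads, so the ratio of summed reads between treated mutant and treated wild type, 6.85 after scaling, had a 95% interval of 2.93 to 19.6 (exact binomial). Such intervals cover counting error only.

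The 13 members with a share under 20% were YALI0_B10626g, YALI0_C08415g, YALI0_C00847g, YALI0_B17776g, YALI0_B19316g, YALI0_B19866g, YALI0_C07590g, YALI0_C20265g, YALI0_E32329g, YALI0_E25201g, YALI0_D14872g, YALI0_E17083g and YALI0_E22957g. They fell 11.8-fold to 284-fold in the wild type, with a median of 28.9-fold. In the mutant the ratio of treated to untreated means was between 0.0448 and 0.525, and 10 of the 13 were called lower (9.7% of all genes). The low treated mutant means that put these 13 together also enter that ratio and that call. Their excess in the treated mutant over the treated wild type was between 2.03 and 2.60 times, and in 4 of them (YALI0_B19866g, YALI0_C08415g, YALI0_E25201g and YALI0_E17083g) the libraries of these groups overlapped.

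YALI0_B10626g had 4391, 7034 and 5006 normalized counts in the untreated wild type and 17.3, 16.5 and 21.1 with acid. It had 1754 and 337 in the untreated mutant and 49.2, 48.3 and 40.3 in the treated mutant. The treated mutant lay above the treated wild type in every library, but the log2 change with acid was −4.51 ± 0.54 in the mutant (adjusted p = 0.000382, edgeR). That value was −2.85 without untreated mutant replicate 1 and −5.27 without replicate 2, and the call held in both. YALI0_C00847g followed the same course, from 7326, 10113 and 9183 to 84.6, 91.7 and 116 in the wild type and from 3574 and 1078 to 218, 186 and 193 in the mutant. YALI0_B17776g went from 819.9, 539 and 1077 to 9.17, 13.5 and 8.44 in the wild type and from 475 and 103 to 40.7, 25.5 and 19.6 in the mutant. In both genes the fall in the mutant was called with and without either untreated mutant library, but its size moved: −3.55, −2.42 without replicate 1 and −4.18 without replicate 2 in YALI0_C00847g, and −3.35, −1.83 and −4.07 in YALI0_B17776g (log2).

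YALI0_C08415g fell to the lowest counts of these genes. It had 789.9, 827 and 1084 normalized counts in the untreated wild type, 331 and 75.8 in the untreated mutant, and 10, 4 and 11 reads in the treated mutant against 2, 1 and 4 in the treated wild type. The ratio of summed reads after scaling was 2.997 with a 95% interval of 1.26 to 8.21 (exact binomial), and the treated libraries overlapped. Its log2 change with acid in the mutant was −4.62, with −3.17 without untreated mutant replicate 1 and −5.33 without replicate 2, called in each case.

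YALI0_D14872g was the single gene of the 13 called higher in the treated mutant than in the treated wild type (log2 difference 1.14 ± 0.25), and the call was lost without treated mutant replicate 2 (1.17) or treated wild-type replicate 3 (1.05). It had 878, 1276 and 1324 in the untreated wild type, 75.4, 90.2 and 68.6 with acid, 403 and 247 in the untreated mutant and 201, 162 and 146 in the treated mutant. Its fall in the mutant was called as well (log2 −0.94 ± 0.26, adjusted p = 0.0289, edgeR), but not without untreated mutant replicate 1 (−0.52; −1.26 without replicate 2, where it held) or treated mutant replicate 2 (−0.90) or 3 (−0.84). YALI0_C20265g fell from 3983, 1995 and 4196 to 199, 165 and 193 in the wild type. In the mutant it went from 3574 and 1127 to 481, 419 and 428, so 1 untreated mutant library stood within the untreated wild type and the other below it. YALI0_C07590g had the same split, with 744 and 193 in the untreated mutant against 853, 616 and 818 in the untreated wild type, 16.3, 24 and 35.9 with acid and 67.4, 93 and 38.3 in the treated mutant. Its log2 change with acid in the mutant was −2.82, with −1.51 and no call without untreated mutant replicate 1 and −3.50 without replicate 2. For YALI0_C20265g that change was −2.42, with −1.33 and −3.03 without these replicates, and it was called in both.

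Over the whole set, the acid response in the mutant was read from the fit to all 6301 genes tested, all members included. The rule sets no limit on this contrast, but it uses the same libraries, so the counts are descriptions. With acid 12 of 39 members were called lower in the mutant, where 9.7% of all genes were, and 1 was called higher (7.95% of all genes). The other 26 did not pass, which does not show that they did not change. The median log2 change was −0.47 in the members and −0.01 in all genes. Leaving out either untreated mutant library, which leaves 1 in that group, changed the number of calls among the members and over all genes. Untreated and treated mutant libraries did not overlap in 15 members that were lower with acid (23% of all genes) and in 4 that were higher (26.2% of all genes). Against the untreated wild type, 22 members were called lower in the treated mutant (27.9% of all genes) and 0 higher (29.5% of all genes). DESeq2 called 23. The 22 comprised all 21 members with a share under 50% and YALI0_C15488g, as the shares themselves set.

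**Figure D3:**
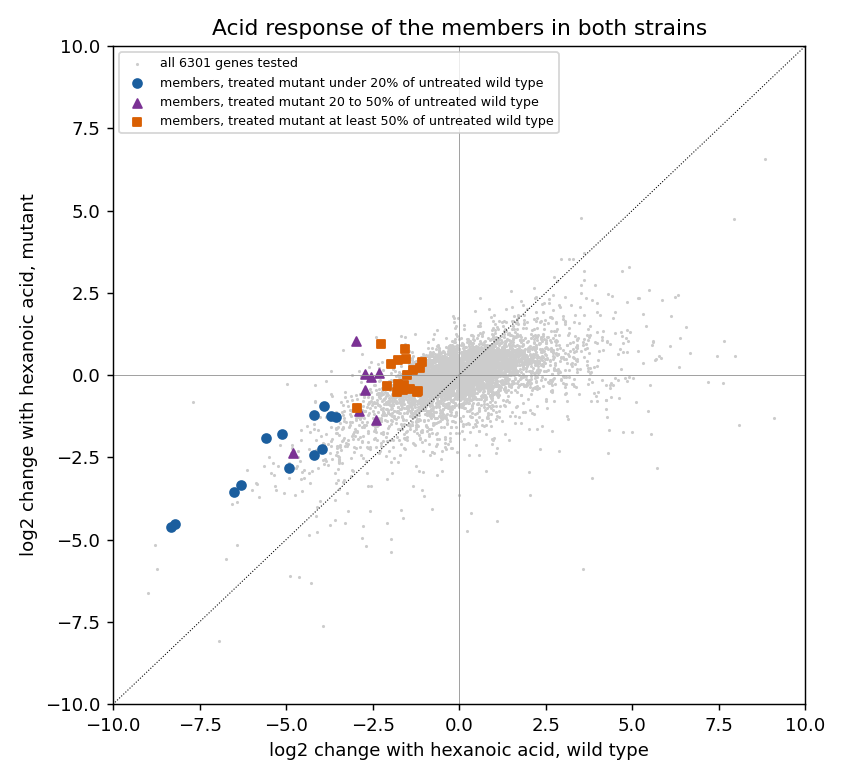
Log2 change with hexanoic acid in the wild type (x axis) and in the mutant (y axis) from the edgeR fit, for all 6301 genes tested (grey) and the 39 members in 3 groups by their share in the treated mutant. All members lie above the dotted line of equal change, by the choice of the rule, and the lowest values on the y axis, down to −4.62, belong to members with a share under 20%.

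Contrasts that the rule used are given for completeness. All 39 members were called lower with acid in the wild type, where 28% of all genes were and 28.5% were higher, and in all 39 the libraries did not overlap (31.3% of all genes). With acid 21 members were called higher in the mutant (5% of all genes) and 0 lower (5.68%), and the 3 treated mutant libraries lay above the 3 treated wild-type libraries in 35 (19.9% of all genes). The 21 calls shrank to 4 without treated wild-type replicate 3, to 9 without replicate 2, to 7 without treated mutant replicate 2 and to 13 without its replicate 3. In the same fits the calls over all genes, in both directions, fell from 673 to 134, 217, 172 and 223. The loss of calls was thus not particular to the members. When libraries were scaled by their totals without TMM, the all-gene median went from 0.03 to 0.16 in this contrast and from −0.01 to −0.11 for acid in the wild type (log2), and 25 members were called. Without acid 0 members were called higher in the mutant (22.8% of all genes), the side the rule limits. Another 15 were called lower (15.3%), the side it does not limit directly. The median ratio of all members to the wild type was 0.615. It was 0.513 in the 998 other acid-repressed genes and 0.943 in 5736 genes with an untreated wild-type mean of at least 50. The untreated wild type also enters the rule's limit on the fall with acid, so a low ratio is not free of the choice. Libraries of the untreated strains did not overlap in 22 members that were lower in the mutant (29.4% of all genes) and in 3 that were higher (30.2%). Of those 15, 8 had a share under 20% and 5 a share between 20 and 50%, and the other 2 were YALI0_C15488g and YALI0_C18263g. At most 0.5 of the wild type without acid was seen in 17 members.

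The 2 untreated mutant libraries differed along the acid response. Replicate 1 was at least 2 times replicate 2 in 11 members (28.2%) and the reverse held in 3 (7.69%). In the 998 other acid-repressed genes these shares were 23.5 and 2.004%, and in 5736 genes with an untreated wild-type mean of at least 50 they were 5.86 and 3.07%. Among the 13 members with a share under 20% replicate 1 was at least 2 times higher in 9, with a median log2 ratio of 1.66, and in the 18 with a share of at least 50% the median was 0.06. The single gene of the 13 with the reverse gap of that size was YALI0_E17083g, at 21.2 in replicate 1 and 80.2 in replicate 2. Across the 39 members the log2 ratio of these libraries went with the log2 fall in the wild type at Pearson r = −0.59 (Spearman rho = −0.56), and across the 5736 genes at r = −0.39 (rho = −0.29), descriptions over genes that share all libraries. The median log2 ratio was 0.48 in the members, 0.40 in the other acid-repressed genes and −0.03 in the 5736 genes.

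**Figure D4:**
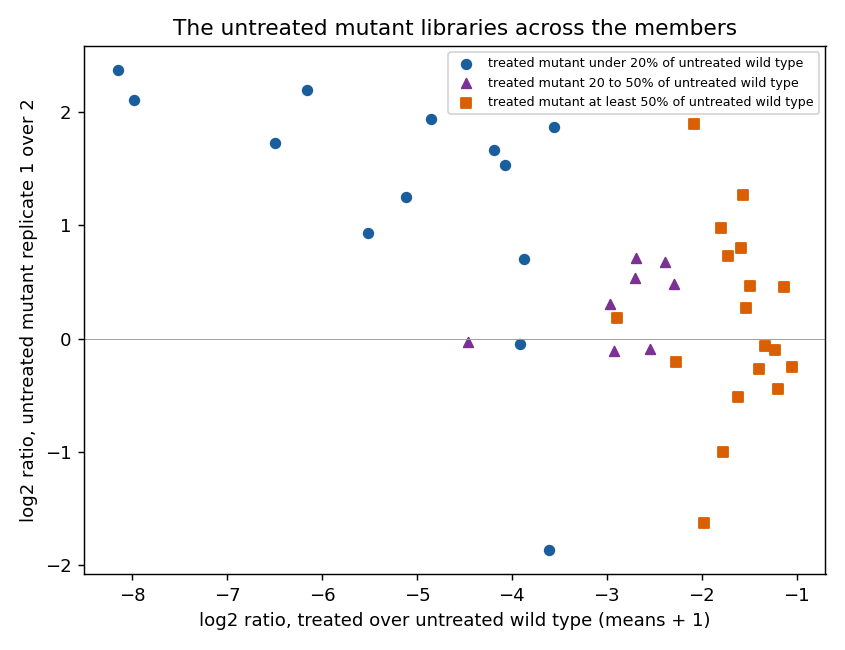
Log2 ratio of untreated mutant replicate 1 to replicate 2 (y axis) against the log2 ratio of treated to untreated wild-type means (x axis) for the 39 members, marked by their share in the treated mutant. The members with a share under 20%, toward the left, have a median of 1.66, and those with a share of at least 50% scatter around 0.06.

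The members were spread over the genome. Y. lipolytica tags carry a letter for the chromosome and numbers that run along it, and the members numbered 5, 7, 8, 4, 9 and 6 on chromosomes A to F, or 12.8, 17.9, 20.5, 10.3, 23.1 and 15.4% of the set against 11.96, 14.4, 14.8, 16.6, 22.2 and 20.03% of all tags. No member stood next to another in tag order. The closest were YALI0_D14872g and YALI0_D15026g, with 5 tags between them, and YALI0_C00847g and YALI0_C01089g, with 9. In 16 members (41%) a directly neighbouring tag with an untreated wild-type mean plus 1 of at least 50 also held at most 0.5 of that level in the treated wild type, against 35.8% of the other acid-repressed genes and 29.2% of all tags with a mean of at least 50. None of these neighbours was also at least 2 times higher in the treated mutant (0 of 39 members), against 2.61% and 1.34% in those sets. Such a neighbour would itself be a member unless its untreated mutant ratio or its name kept it out. Since no member stood next to another, the 0 was nearly fixed and is no contrast with those sets.

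Values close to the limits of the rule show where the set ends. YALI0_A10989g entered with a treated mutant to treated wild-type ratio of 2.01 and YALI0_E27181g with 2.02, while YALI0_D15928g (1.98) and YALI0_B06138g (1.96) stayed outside. In YALI0_E27181g the untreated wild type had 145, 57.4 and 94.1 normalized counts, the treated wild type 23.4, 36.1 and 36.9, the untreated mutant 115 and 65.3 and the treated mutant 65.3, 81.6 and 51.1. YALI0_B01430g entered at 0.482 of the untreated wild type with acid and YALI0_E21978g stayed outside at 0.506. The libraries of YALI0_B01430g held 185, 201 and 151 in the untreated and 87.7, 99.2 and 70.7 in the treated wild type, then 126 and 149.9 in the untreated and 183, 213 and 143 in the treated mutant. The highest untreated mutant ratio inside was that of YALI0_D15026g (1.87), and YALI0_B20064g stayed outside at 2.16. The lowest untreated wild-type mean plus 1 inside was 62.9 for YALI0_D24849g, against 40.4 outside for YALI0_C15785g. YALI0_D24849g had 49, 89.2 and 47.4 in the untreated wild type, 32.6, 16.5 and 28.5 with acid, 75.6 and 81 in the untreated mutant and 86.7, 43 and 35.4 in the treated mutant. In all 3 of these genes the treated wild type was below every other library. Leaving out each of the 11 libraries in turn kept 17 members in every selection, and each member was kept in at least 8.

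Of the 6 genes left out by name, 3 pass all limits: YALI0_B15059g and YALI0_B19382g, assigned to FAS1 and FAS2 for the subunits of fatty acid synthase, and YALI0_B13838g, assigned to ALK5 of the CYP52 family. Their treated mutant shares of the untreated wild type were 84.3, 75.9 and 88.3%. A list of 9 genes of fatty acid synthesis, elongation and desaturation held 0 members, but FAS1 and FAS2 are in it and are kept out only by name. With acid in the wild type 7 were called lower (28% of all genes) and 1 higher (28.5%), and 1 was called higher in the mutant (7.95%). Against the treated wild type 5 were called higher (5%) and 0 lower (5.68%) in the treated mutant (median log2 difference 0.96, all genes 0.03). Those 5 are all among the 6 genes left out by name. Of 12 CYP52 genes ALK1 was the single member. With acid in the wild type 6 of the 12 were called lower (28% of all genes) and 1 higher (28.5%). In the treated mutant 3 were called higher (5%) and 0 lower (5.68%) than in the treated wild type (median log2 difference 0.45). The 3 include ALK5, kept out of the set only by name, and ALK1, whose call was lost in 10 of 19 alternative fits. Lists of 9 glycerolipid genes and 3 genes of NADPH supply held 0 members, with 1 and 0 called higher in the treated mutant (5% of all genes) and 0 lower in either (5.68%). The 1 glycerolipid gene called higher was DGA1, which the mutant is labelled to overexpress from a plasmid. The lists were chosen with earlier results of these data known.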

How the data were processed

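Per the labels' protocols, total RNA was made into strand-marking libraries with a NEBNext Ultra II Directional kit and read on an Illumina NovaSeq. The tools named in the submitters' processing notes are DESeq2 1.32.0, HTSeq 0.11.0, STAR 2.7.9a, FastQC 0.11.7 and SAMtools 1.9. Genome build and annotation were not given in the sources used here. The authors deposited whole-number counts of reads per gene, and a normalized signal, for which the quotient with those counts was found to be 1 constant in each library. The members, lists and limits were chosen with earlier results of these data known.

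Group means of the deposited normalized signal plus 1 gave the members. Counts were fitted with edgeR 4.0.16 (limma 3.58.1, R 4.3.3): TMM scaling, filterByExpr on the 4 groups (6301 genes kept, 834 removed), 1 mean per group over all 11 libraries, a robust quasi-likelihood F test, and a Benjamini-Hochberg adjusted p under 0.05 over all genes. SE was taken as the size of the log2 change over root F. The 6 contrasts were acid in each strain, strain without and with acid, the difference between responses, and treated mutant against untreated wild type. The rule and the fit were tested on simulated data. The biological coefficient of variation was 23.8%.

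Every member could be mentioned by its tag, since the rule fixes the set. Values in every library are given for ALK1, those with the highest untreated wild-type means, the largest ratios of treated mutant to treated wild type or the largest changes called in the mutant, those nearest inside each limit, and for further members picked after their values were seen. Of the other members only counts and ranges are given, and of genes outside a limit only that value. Lists defined by gene descriptions were not built, since no descriptions were used here. The pairing check is given with the alternatives.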

Additional observations from a re-analysis of the deposited data

Results flagged for a closer look

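The responses of the strains to hexanoic acid differed in 30 of 39 members by the interaction term of the edgeR fit, all with the smaller fall or a rise in the mutant, where 10% of all genes were called in that direction. The limits of the rule force the direction of this difference, so the count is a description of the choice. Among members with a share under 20%, the log2 response difference was 3.69 for YALI0_B10626g, 3.71 for YALI0_C08415g, 2.95 for YALI0_C00847g, 2.96 for both YALI0_B17776g and YALI0_D14872g, and 1.77 for YALI0_C20265g. Between 20 and 50% it was 4.02 for YALI0_C01089g, 2.75 for YALI0_B12980g, 2.48 for ALK1 (YALI0_E25982g), 2.44 for YALI0_E34925g, 2.26 for YALI0_E33377g and 1.80 for YALI0_F00330g. Above that it was 3.22 for YALI0_C15488g, 2.37 for YALI0_F21923g, 2.33 for YALI0_A03817g and 1.35 for YALI0_E33935g. A large difference thus occurred both in genes that ended near 0 in both treated groups and in genes that stayed near the untreated level. It equals the log2 strain difference with acid minus that without acid. Members with a share under 20% had medians of 1.16 with and −1.77 without acid. These medians were 1.30 and −1.11 between 20 and 50%, and 1.23 and −0.19 above that. At low shares the larger response differences went with a lower untreated mutant, while the median excess with acid was not higher there. The shares and the difference without acid both use the untreated wild type, and the rule holds the excess at 2 times or more. This order is therefore in part set by how the groups were cut. The 2 untreated mutant libraries also lay furthest apart at shares under 20% (median log2 ratio 1.66). Several of the response differences move with 1 library. Without untreated mutant replicate 1 and replicate 2, respectively, they were 5.36 and 2.94 for YALI0_B10626g, 5.15 and 2.99 for YALI0_C08415g, 4.09 and 2.32 for YALI0_C00847g and 4.48 and 2.23 for YALI0_B17776g. The same pairs were 2.86 and 1.16 for YALI0_C20265g, 1.74 and 3.34 for YALI0_A03817g and 3.17 and 1.84 for YALI0_F21923g. Without treated wild-type replicate 1 the value was 5.01 for YALI0_C01089g and 3.28 for YALI0_E34925g. Of 18 alternatives each, the call was lost in 11 for YALI0_F00330g, in 10 for YALI0_E34925g and YALI0_C20265g, in 3 for YALI0_C08415g, in 2 for YALI0_B17776g and in 1 for YALI0_F21923g, and in 0 for the other 10 genes named here.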

How the results depend on the processing

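TMM-scaled values chose the same 39 genes. Medians chose 58, of which 32 were shared, 3-fold limits 5, a lower limit of 0.5 on the untreated mutant ratio 22, and a minimum of 200 in the untreated wild type 25. Leaving out 1 library gave 35 to 78 genes, the highest without treated wild-type replicate 1 (35 shared). Among the fixed 39 members, leaving out 1 library put 12 to 14 under a share of 20% and 18 to 19 at 50% or more.

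Leaving out 1 library gave 38 to 39 calls lower with acid in the wild type, 4 to 29 higher in the treated mutant, 10 to 18 between strains without acid, 7 to 15 lower and 0 to 1 higher with acid in the mutant, 21 to 28 for the response difference and 22 to 24 for treated mutant against untreated wild type. Other scalings, filters and DESeq2 kept each of these counts within 1.5 times, as did a fit to the groups compared, which was not run for the response difference. Over all genes, calls between strains with acid also moved when 1 library was left out, from 134 to 924. Deviations from the group means correlated between same-numbered libraries of different groups at r = −0.455 to 0.366 for title numbers. In groups of 2 or 3 libraries such deviations are tied to each other, so these values cannot decide whether the numbers pair samples. A replicate block by title number gave 17 calls higher in the treated mutant, 10 lower with acid in the mutant and 25 for the response difference, and a replicate block by description number 15, 11 and 24. YALI0_D14872g did not pass in the mutant under either (−0.91 and −0.88).

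Of 1617 refits of 86 called changes of named members, 1492 passed in the same direction, 125 kept the direction without passing and 0 reversed. Members with 0 to 4 reads in treated wild-type libraries are limited by depth.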
